A study of Mus musculus with 9 samples.

Results

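The spliceosome and hnRNP genes are the core of the machinery that removes introns from nuclear transcripts. They were chosen by name, as genes whose single symbol in the platform annotation begins with Snrp, with Srsf and a digit, with Sf3a or Sf3b and a digit, or with Hnrnp, leaving out Snrpn. This gave 44 genes and 102 probe sets, of 15964 genes and 36701 probe sets in all. A probe set is a group of short probes on the array that together report 1 transcript sequence, and its signal is on a linear scale in arbitrary array units. Total RNA came from pooled mouse embryos at E7.5, during gastrulation, in 3 genotypes. In the knockout pool, of about 50 embryos, beta-catenin was deleted only where the cytokeratin 19 promoter drives Cre recombinase. In the flox-del pool the alleles of beta-catenin were 1 floxed and 1 deleted. In the wt-flox pool they were 1 wild type and 1 floxed. For flox-del and wt-flox, which serve as controls, the labels give neither the number of embryos nor whether Cre was present, and flox-del embryos with Cre would have the genotype of the knockout. Both controls carry a floxed allele, and a conditional knockout is made by Cre acting on such alleles. The strain is not stated in the labels. Each genotype had 1 array on each of 3 designs, A, B and C, with different probe sets, so there is no replicate, no test and no error for any difference below. How precise a value is depends on these few arrays.

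The spliceosome is built from small nuclear ribonucleoprotein particles (snRNPs), each a small nuclear RNA bound by a ring of Sm proteins and by proteins of its own. The U1 particle recognises the start of an intron and the U2 particle its branch point, where the SF3A and SF3B complexes hold U2 in place. SR proteins bind exons and favour their inclusion, while many hnRNPs coat nascent transcripts and often oppose the use of nearby splice sites. These genes are active in dividing cells generally and mark no germ layer, so in a whole embryo their RNA comes from every tissue. In a pool of whole embryos, fewer cells of a type and less RNA per cell cannot be told apart.

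Signals below the pooled median of a design (57.3 on A, 90.0 on B and 80.9 on C), called the floor here, were set to it before folds were taken. A probe set counted as measured if at least 1 of its 3 values was above the floor. A fold compares a pool with whichever other pool is closer to it, and a fold with 1 side at the floor is given as at least that size. On these terms 43 of the 44 genes and 84 of the 102 probe sets were measured, and 61 probe sets were above the floor in every pool. The exception was Hnrnph2, an RNA-binding protein of the F/H group, whose single probe set stood at 32.7 in the knockout, 38.5 in flox-del and 34.9 in wt-flox. A gene is represented by its brightest measured probe set, which lay on design A for 32 genes, on B for 7 and on C for 4. Brightness is the mean log2 signal over all 3 pools, the knockout included. Signals of different probe sets are not compared as levels, because probes differ in how strongly they bind.

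Markers of several tissues differed between the same pools. Markers of visceral endoderm, the absorptive epithelium around the embryo, had a summed signal of 37865 in the knockout, 18670 in flox-del and 21335 in wt-flox, and 10 of 11 were higher in the knockout than in both controls. The 5 epiblast markers summed to 11545 in the knockout, 6670 in flox-del and 5363 in wt-flox. The 4 measured markers of streak and mesoderm summed to 840.1 in the knockout, 1350 in flox-del and 1285 in wt-flox. Extraembryonic ectoderm markers summed to 663 in the knockout, 519 in flox-del and 468 in wt-flox, and maternal and immune markers to 663 in the knockout, 332 in flox-del and 151 in wt-flox. The 2 measured primitive blood markers summed to 132 in the knockout, 179.5 in flox-del and 35.9 in wt-flox. Ptprc, Hba-x and Hbb-y were below the floor in every pool. The ratio of signal at the start of beta-actin RNA to that at its end was lower in the knockout on each design, at 0.570 to 0.613, against 0.655 to 0.698 in flox-del and 0.681 to 0.730 in wt-flox. The same ratio for Gapdh put the knockout between the controls on each design, at 0.878 to 1.09, against 0.900 to 1.07 in flox-del and 0.825 to 1.15 in wt-flox. The targeted gene, Ctnnb1, stood at 1376 in the knockout, 1509 in flox-del and 1773 in wt-flox, and whether its probes lie in the deleted sequence is not stated in the files. The part of these differences in the values below was not tested.

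Most of the splicing genes had a signal in the knockout close to that in the controls. The median log2 difference, knockout minus the mean of both controls, was 0.0054 over the 43 genes and -0.02 over all 12440 measured genes. It was -0.01 for the 32 genes read on design A (-0.01 over all genes there), 0.16 for the 7 on design B (-0.02) and -0.33 for the 4 on design C (-0.05). The 13 member probe sets of design B had a median of 0.25, against -0.03 over all on that design. Of these, 9 were highest in the knockout, against 2411 of all 7283 measured there. Those of Sf3b2 and Hnrnpc had both controls below the floor, so they counted as measured only through the knockout. The Hnrnpc probe set, at 0.25, is the median of the 13. Some of the 13 belong to the same gene, such as Srsf6 and Srsf11. Of the 43 genes, 33 (76.7%) were within 25% of the mean of the controls, meaning that the higher value exceeded the lower by less than 25%, against 53.0% of all genes. Members lie mostly on design A, where all genes varied less. The share was 78.1% of the 32 on A (66.5% of all genes there), 100% of the 7 on B (53.5%) and 25% of the 4 on C (34.9%). Between flox-del and wt-flox, 31 of 43 (72.1%) were within 25%, against 49.7% of all genes. Where the signal was above the floor in every pool, 32 of 40 (80.0%) splicing genes and 57.5% of all such genes were within 25% in the knockout.

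Few members stood apart. In the knockout, Snrpb2 and Srsf3 were lower than in both controls by 1.5-fold or more, 2 genes or 4.65% of the 43, where the background was 5.67% of all measured genes. Also in the knockout, 2 genes were at least 1.5-fold higher than both, Snrpc and Snrp1c-ps2, against a background of 6.49%. By the same rule 3 genes were lower in flox-del than in both other pools (Hnrnpk, Snrpa1 and Snrp1c-ps2; background 5.53%) and 1 was higher (Hnrnpr; background 7.47%). In wt-flox, 0 genes were lower (background 5.56%) and 0 were higher (background 6.66%). The counts in the knockout lie near or under the background. The probe sets behind all 4 knockout calls carry a suffix letter, which marks a departure from the usual probe choice. Without such probe sets 0 genes were lower and 0 higher, but only 34 member genes were then measured. Snrpb2, Srsf3 and Snrp1c-ps2 had no measured probe set without a letter, so for them this setting could not repeat the call. Of the 4, only Snrpc was then read on another probe set. By any amount, 16 genes (37.2%) were lowest in the knockout, against 26.0% of all genes, and 15 (34.9%) were highest there, against 33.5%. With equal medians 10 genes (23.3%) were lowest in the knockout, against 21.2%, and using only probe sets above the floor in every pool 14 of 41 (34.1%) were, against 31.7%. Genes tied at the floor count as neither lowest nor highest.

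**Figure D1:**
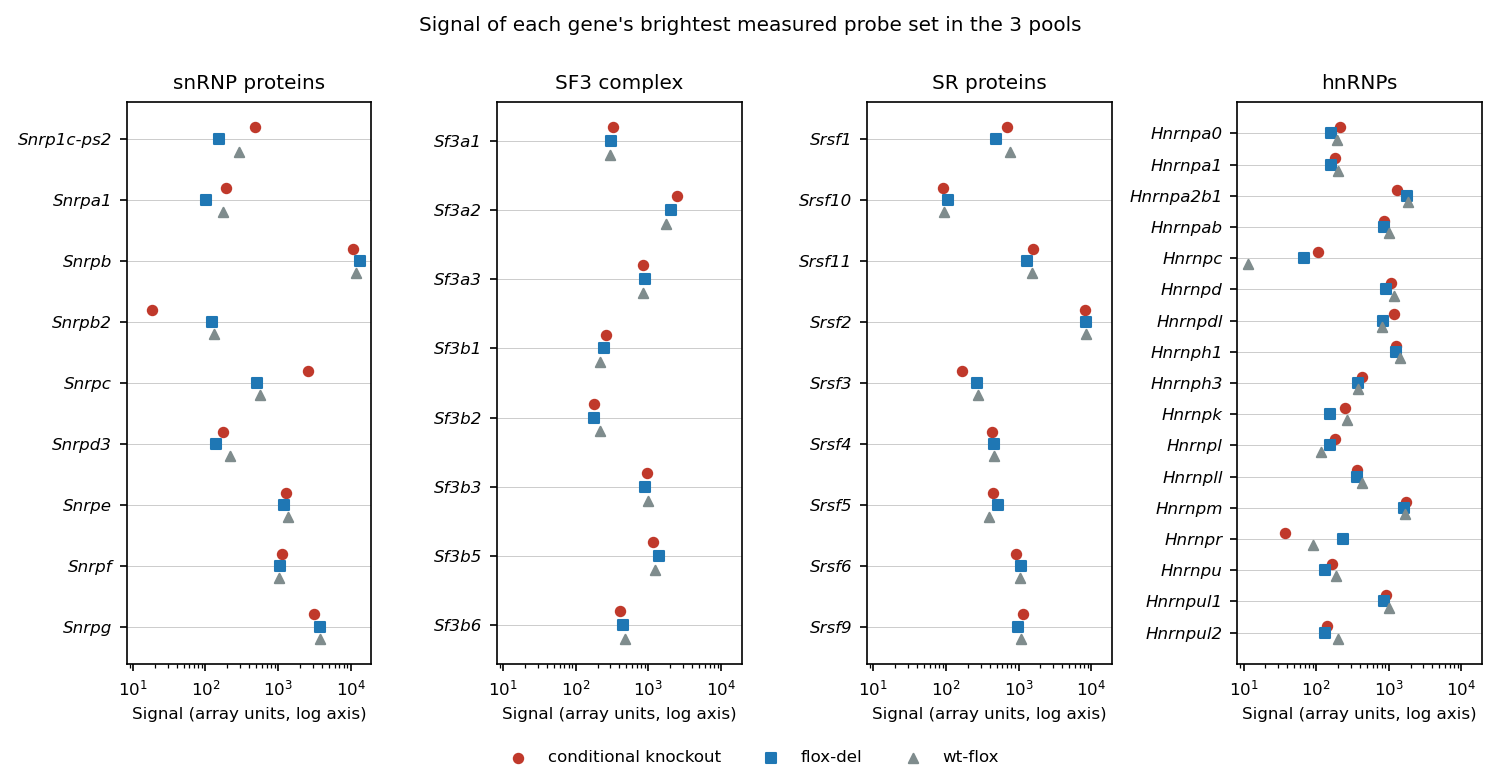
Signal of the 43 measured genes in the 3 pools, on a log axis in array units, with 1 point per pool from the brightest measured probe set and 1 panel per family. The 3 points of most genes lie close together. Snrpc (2611 in the knockout), Snrpb2 (18.3) and Hnrnpr (37.4) are among those with a point away from the others.

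The Sm core proteins form the ring that every major snRNP shares. Snrpb, which encodes the Sm B protein, had a signal of 10723 in the knockout, 13546 in flox-del and 11811 in wt-flox. That probe set carries a suffix letter (r), and the other Snrpb probe sets were below the floor in every pool. Snrpg, for Sm G, stood at 3165 in the knockout against 3791 in flox-del and 3781 in wt-flox. Snrpe, for Sm E, stood at 1291 in the knockout against 1217 in flox-del and 1390 in wt-flox, on a probe set with a suffix letter (f). On these probe sets the knockout was lowest for Snrpb and Snrpg, by 1.10-fold and 1.19-fold, and lay between the controls for Snrpe. The other Snrpe probe set, on design C, gave 111 in the knockout against 76.5 in flox-del and 89.7 in wt-flox, highest in the knockout. Snrpf, for Sm F, stood at 1119 in the knockout against 1066 in flox-del and 1020 in wt-flox, 1.05-fold higher in the knockout. Snrpd3, for Sm D3, lay between the controls on its brightest probe set, at 173 in the knockout against 139 in flox-del and 216 in wt-flox. Its probe set on design A gave 110 in the knockout against 157 in flox-del and 113 in wt-flox. There the knockout was lowest and the controls were in the reverse order. On their brightest probe sets, all 5 Sm genes were within 25% of the mean of the controls, and 0 stood apart in any pool by 1.5-fold.

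Of proteins specific to U1 or U2, those outside SF3A and SF3B had 3 member genes, and all 3 stood apart in some pool. The 8 measured genes of SF3A and SF3B, which also belong to U2, are given below, and 0 of them did. The background was 34.3% of all measured genes, and 7 of the 43 members (16.3%) stood apart. Snrpc encodes the U1 C protein, which helps U1 pair with the start of the intron. Its brightest probe set, on design C, gave 2611 in the knockout, 506 in flox-del and 562 in wt-flox, 4.65-fold higher in the knockout. A second on design C gave 1257 in the knockout against 461 in flox-del and 382 in wt-flox, 2.73-fold higher. The Snrpc probe set on design A gave 803 in the knockout against 776 in flox-del and 934 in wt-flox, so there the knockout lay between the controls. In both controls its signal was above that of either design C probe set, so the brightest was chosen through its knockout value. Both probe sets of design C carry the suffix letter r, which marks probes chosen with some of the selection rules relaxed, and the one on design A carries no letter. Without probe sets that carry a suffix letter, or on design A alone, Snrpc no longer stood apart.

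Snrp1c-ps2 is annotated as a pseudogene, and by its name it is a copy of the U1 C gene. Its single probe set, on design A, gave 488 in the knockout, 154 in flox-del and 291 in wt-flox. The knockout was 1.68-fold higher than wt-flox, and flox-del was 1.90-fold lower than wt-flox, so the control pools also differed. This probe set carries the letter f, which marks sequence shared within a gene family, so its signal may include other transcripts of the family. Of the 4 probe sets named for U1 C or its pseudogene, 3 were highest in the knockout. Counted by genes, the background was 33.5% of all measured genes highest there by any amount. The 3 are both Snrpc probe sets of design C and that of the pseudogene, and each carries a suffix letter. The Snrpc probe set on design A, without a letter, lay between the controls. The 3 are not counted here as separate evidence of more U1 C RNA, and whether they are was not tested. Which transcripts the 4 probe sets detect was not analysed here.

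**Figure D2:**
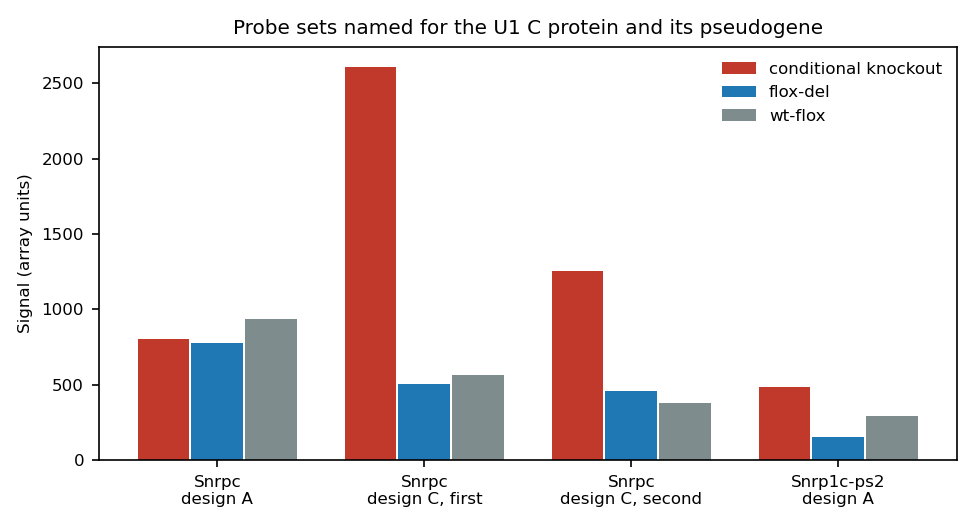
Signal in array units (bars from 0) of the 3 Snrpc probe sets and the 1 Snrp1c-ps2 probe set, with 1 bar per pool. On both design C probe sets the knockout bar is the tallest, at 2611 and 1257, while on design A Snrpc stands at 803 in the knockout, 776 in flox-del and 934 in wt-flox.

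Snrpa1 encodes U2 A', a protein of the U2 particle. It stood at 189 in the knockout, 103 in flox-del and 174 in wt-flox, so flox-del was 1.70-fold lower than the nearer pool. With a floor at the 70th percentile that log2 difference was -0.38, under 1.5-fold. Snrpb2 encodes U2 B'', the partner of U2 A'. Its brightest probe set, on design C, gave 18.3 in the knockout, 123 in flox-del and 130 in wt-flox, at least 1.53-fold lower in the knockout. Its pair of probe sets on design A gave 70 in the knockout against 144 in flox-del and 17.1 in wt-flox, and 13.0 in the knockout against 50.3 in flox-del and 62.4 in wt-flox. On the first of these the knockout lay between the controls, and on the second 2 of the 3 values were below the floor. The Snrpb2 difference dropped under 1.5-fold with equal medians (-0.57 on the log2 scale) and with quantile normalization (-0.57). With a floor at the 70th percentile it was 0, and as a mean over probe sets it was -0.17.

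SF3A and SF3B form the part of the U2 particle that grips the branch point, and SF3B1 is the scaffold of SF3B. The 8 measured genes of these complexes had a median log2 difference of -0.0031 in the knockout, and 7 were within 25% of the mean of the controls. Sf3a2, the SF3A subunit next to the Sm ring, was the exception, at 2471 in the knockout against 2037 in flox-del and 1752 in wt-flox, 1.21-fold higher, on a probe set with the letter f. Its other probe set, with the letter r, gave 1116 in the knockout, 1055 in flox-del and 1147 in wt-flox, the knockout lying between the controls. Sf3b5, a small SF3B subunit, stood at 1150 in the knockout against 1384 in flox-del and 1253 in wt-flox, 1.09-fold lower in the knockout. Sf3b1 stood at 258 in the knockout against 249 in flox-del and 217 in wt-flox on its brightest probe set, but at 97.8 in the knockout against 156 in flox-del and 123 in wt-flox on another, and at 123 in the knockout against 90.5 in flox-del and 58.7 in wt-flox on design B. The 3 probe sets of Sf3b1 thus put the knockout highest, lowest and highest. The remaining subunits Sf3a1, Sf3a3, Sf3b3 and Sf3b6 had log2 differences from -0.18 (Sf3b6) to 0.12 (Sf3a1), and none of the 8 genes stood apart by 1.5-fold in any pool.

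Sf3b2, the SF3B subunit that contacts the intron next to the branch point, depended on the probe set. The one on design A gave 178 in the knockout, 179 in flox-del and 214 in wt-flox. The one on design B gave 232 in the knockout against 86.5 in flox-del and 69.8 in wt-flox and stood at least 2.58-fold higher, both controls lying below the floor. One on design C gave 205 in the knockout against 61.6 in flox-del and 14.2 in wt-flox, at least 2.53-fold higher. All 3 carry a suffix letter (f, f and i, the last marking fewer unique probes than usual), and 2 further probe sets on design C were below the floor in every pool. As a mean over its measured probe sets, Sf3b2 was at 0.81 on the log2 scale above the nearer control. Of the probe sets in that mean, those on designs B and C counted as measured only through the knockout. The 2 below the floor in every pool did not enter it.

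SR proteins showed 1 gene apart among the 9 measured. Srsf3, which encodes the smallest SR protein, had a signal of 167 in the knockout, 271 in flox-del and 274 in wt-flox on design A, 1.63-fold lower in the knockout. Its probe set on design C gave 84.0 in the knockout against 28.9 in flox-del and 22.6 in wt-flox, with the knockout highest and only just above the floor, and its other 2 were below the floor. The Srsf3 difference was -0.56 on the log2 scale with equal medians and -0.32 as a mean over probe sets, both under 1.5-fold. The brightest, Srsf2, which acts in exon definition, stood at 8271 in the knockout against 8529 in flox-del and 8500 in wt-flox, the knockout being 1.03-fold lower. Srsf11, a protein found at splice sites, stood at 1599 in the knockout against 1324 in flox-del and 1557 in wt-flox, 1.03-fold higher in the knockout.

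Srsf6 and Srsf1, both regulators of alternative exons, had probe sets that disagreed. Srsf6 gave 910 in the knockout against 1078 in flox-del and 1057 in wt-flox, and 843 in the knockout against 1058 in flox-del and 964 in wt-flox on design A. A second on design B gave 787 in the knockout against 528 in flox-del and 678 in wt-flox, the knockout being highest. The one on design C gave 79.7 in the knockout against 130 in flox-del and 337 in wt-flox, at least 1.61-fold lower, and there wt-flox was also 2.59-fold higher than flox-del. The brightest for Srsf1 gave 684 in the knockout against 490 in flox-del and 760 in wt-flox, so the knockout lay between the controls, while another on design A gave 74.6 in the knockout against 116 in flox-del and 141 in wt-flox, 1.56-fold lower. A further one on design A gave 146 in the knockout against 130 in flox-del and 129 in wt-flox, 1.12-fold higher. Srsf4, Srsf5, Srsf9 and Srsf10 had log2 differences from -0.14 (Srsf10) to 0.15 (Srsf9), and 8 of the 9 SR genes were within 25% of the mean of the controls.

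Among hnRNPs, 0 of 17 measured genes stood apart in the knockout and 13 were within 25% of the mean of the controls. The A/B and D proteins bind exons and introns through paired RNA recognition motifs. Hnrnpa2b1 stood at 1294 in the knockout against 1809 in flox-del and 1845 in wt-flox, 1.40-fold lower in the knockout, and its other probe set gave 33.4 in the knockout against 64.4 in flox-del and 60.1 in wt-flox, all near or below the floor. Hnrnpdl, a relative of hnRNP D, stood at 1168 in the knockout against 845 in flox-del and 805 in wt-flox on its brightest probe set, 1.39-fold higher in the knockout, and at 407 in the knockout against 340 in flox-del and 401 in wt-flox on another, 1.02-fold higher. Hnrnpa0, Hnrnpa1, Hnrnpab and Hnrnpd had log2 differences from -0.13 (Hnrnpab) to 0.27 (Hnrnpa0). On design C, Hnrnpd gave 19.9 in the knockout against 276 in flox-del and 16.0 in wt-flox on a probe set with the letter i, at least 3.41-fold higher in flox-del, where the brightest, on design A, gave 1060 in the knockout against 918 in flox-del and 1199 in wt-flox. Hnrnpab stood at 854 in the knockout, 871 in flox-del and 1009 in wt-flox on its brightest. On design C it was highest in flox-del, at 130 in the knockout, 246 in flox-del and 72.8 in wt-flox.

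The other hnRNPs include the H, K, L, M and U proteins. Hnrnpm, a splicing regulator with a methionine-rich repeat, stood at 1706 in the knockout, 1624 in flox-del and 1696 in wt-flox, and on design C at 1659 in the knockout against 1393 in flox-del and 1295 in wt-flox. The knockout was highest on both, by 1.01-fold and by 1.19-fold. Hnrnph1, a protein that binds runs of G, stood at 1254 in the knockout against 1267 in flox-del and 1410 in wt-flox, and Hnrnph3, a relative, stood at 429 in the knockout against 373 in flox-del and 375 in wt-flox, 1.14-fold higher in the knockout. Hnrnpll, known in lymphocytes as a regulator of Ptprc exons, gave 365 in the knockout against 367 in flox-del and 426 in wt-flox on design A and 184 in the knockout against 205 in flox-del and 199 in wt-flox on design B. On design C it gave 186 in the knockout against 34.8 in flox-del and 32.3 in wt-flox, at least 2.29-fold higher. Hnrnpk, a poly-C binding protein, stood at 249 in the knockout, 156 in flox-del and 264 in wt-flox, so flox-del was 1.59-fold lower than the nearer pool. Hnrnpc, Hnrnpl, Hnrnpu, Hnrnpul1 and Hnrnpul2 had log2 differences from -0.20 (Hnrnpul2) to 0.42 (Hnrnpl) in the knockout.

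Hnrnpr, a relative of the protein Syncrip, put the pools in different orders on its probe sets. The brightest, on design C, gave 37.4 in the knockout, 231 in flox-del and 91.3 in wt-flox, 2.53-fold higher in flox-del. A second on design C gave 8.9 in the knockout against 84.6 in flox-del and 79.5 in wt-flox, and another there gave 180 in the knockout against 21.5 in flox-del and 34.1 in wt-flox, at least 2.22-fold higher in the knockout. The one on design A, the only one above the floor in every pool, gave 94.0 in the knockout against 85.0 in flox-del and 140 in wt-flox, with flox-del lowest. With a floor at the 30th percentile or with no floor, the design A probe set became the brightest and the log2 difference of flox-del from the nearer pool was -0.15.

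Between the control pools, most hnRNP genes were lower in flox-del, which was not particular to this family. Of 17 hnRNP genes, 13 (76.5%) were lower in flox-del than in wt-flox, 3 were higher and 1 was equal at the floor, where the background was 46.9% of all measured genes lower. The median log2 difference, flox-del minus wt-flox, was -0.21 over these genes and 0 over all genes. In the other families, 6 of 9 snRNP genes (66.7%), 5 of 9 SR genes (55.6%) and 3 of 8 SF3 genes (37.5%) were lower in flox-del. Over all 43 members it was 27 (62.8%). The knockout was lowest for 5 of the 17 genes, between the controls for 6 (35.3%, against 26.5% of all genes) and highest for 6. Hnrnpul2, a nuclear scaffold relative of hnRNP U, had 141 in the knockout, 131 in flox-del and 199 in wt-flox on one probe set, and 132 in the knockout, 118 in flox-del and 181 in wt-flox on the other. Its probe sets were both lower in flox-del than in wt-flox, while those of Hnrnpab and Hnrnpm on design C, given above, were higher there. Over probe sets above the floor in every pool, 16 of 20 hnRNP probe sets were lower in flox-del, against 50.5% of all such probe sets. Over all 30 measured hnRNP probe sets the count was 17, or 56.7%, against 45.7% of all measured probe sets. The count of hnRNP genes was chosen after the values were seen. With quantile normalization it was 10 of 17 (58.8%), against 46.7% of all genes and 7 of 9 snRNP genes (77.8%).

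Probe sets of the same gene agreed on direction about as often as for genes at large. Among the 24 member genes with 2 or more measured probe sets, 10 had all of them on the same side of the mean of the controls, or 41.7% (95% Wilson interval 24.5% to 61.2%, covering counting error only), against 42.6% of 4757 genes. All probe sets were lower in the knockout for 6 of the 10 and higher for 4. The median spread between a gene's probe sets in the log2 difference was 0.49, against 0.59 over all genes. On design A alone the probe sets of 7 of 10 genes agreed, against 52.5% of all genes there. With wt-flox as the sole control 6 of 24 agreed (25%), against 33.2% of all genes.

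The closest were Hnrnpab (spread 0.01), Hnrnpul2 (0.05), Srsf2 (0.08), Srsf4 (0.24) and Hnrnpm (0.26). This spread covers only the difference from the mean of the controls. For Hnrnpab, flox-del minus wt-flox was -0.21 on design A and 1.60 on design C, so its probe sets disagreed on the controls. Srsf4, an SR protein, gave 427 in the knockout, 456 in flox-del and 461 in wt-flox on one probe set and 89.8 in the knockout against 117 in flox-del and 111 in wt-flox on the other. The widest were Snrpc (2.37), Hnrnpr (1.998), Srsf6 (1.77), Sf3b2 (1.501) and Hnrnpll (1.33). Taken as pairs, 33 of 65 pairs (50.8%) of member probe sets pointed the same way, against 52.6% of all pairs. With both probe sets above the floor in every pool it was 15 of 25 (60.0%), against 54.4%, and the median distance within such pairs was 0.27, against 0.38.

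**Figure D3:**
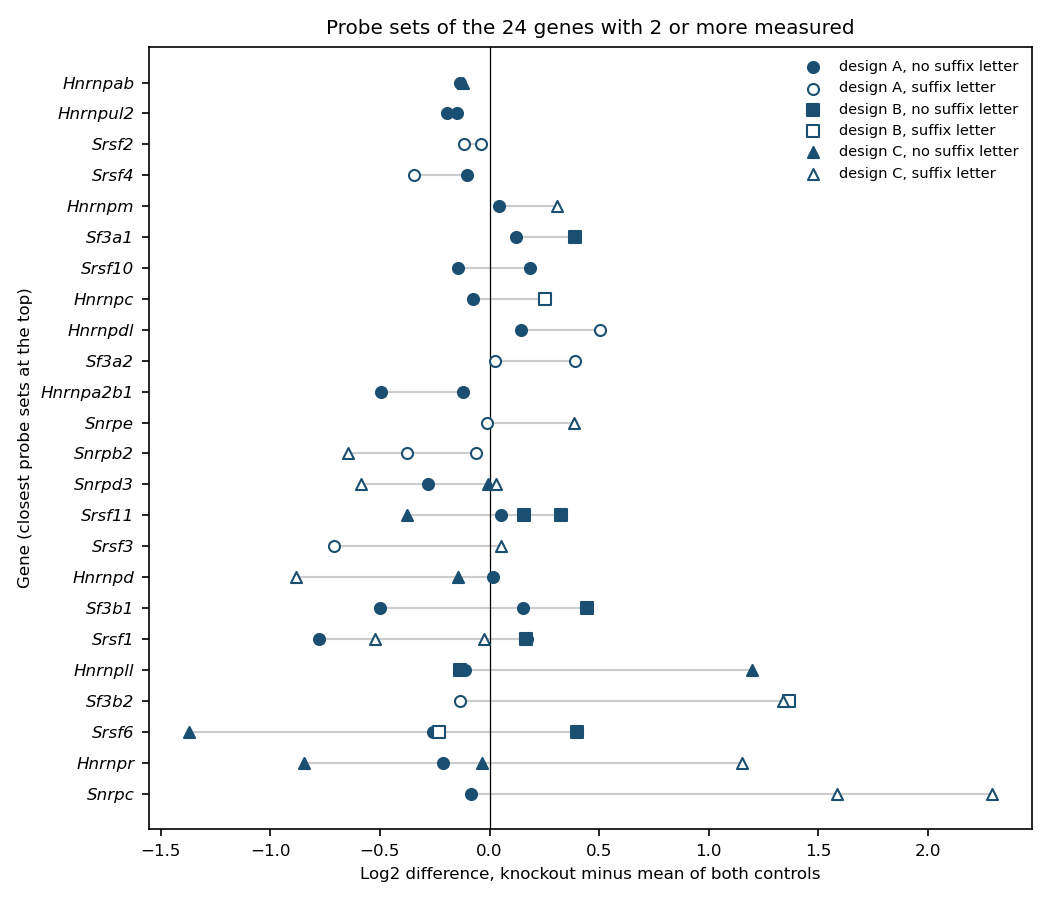
Log2 difference, knockout minus the mean of both controls, of every measured probe set of the 24 genes with 2 or more, with genes ordered by their spread. Shapes give the design and open shapes a suffix letter. The spread runs from 0.01 for Hnrnpab to 2.37 for Snrpc.

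Counted over probe sets rather than genes, 4 of 84 in the knockout lay 1.5-fold or more below both controls (background 5.31%) and 7 above (background 6.97%). In flox-del, 3 were lower (background 5.36%) and 6 higher (background 8.03%), and in wt-flox, 1 was lower (background 5.43%) and 2 were higher (background 7.29%). The 7 higher in the knockout were 2 each of Snrpc and Sf3b2 and 1 each of Snrp1c-ps2, Hnrnpll and Hnrnpr. Those of Sf3b2, Hnrnpll and Hnrnpr had both controls below the floor, so they counted as measured only through the knockout. The 4 lower were of Snrpb2, Srsf1, Srsf3 and Srsf6. The 6 higher in flox-del were of Hnrnpab, Hnrnpd, Hnrnpr, Snrpb2, Snrpd3 and Srsf1, of which 5 lie on design C. Those of Hnrnpd, Snrpd3 and Srsf1 had both other pools below the floor, so they counted as measured only through flox-del. On design C, Snrpd3 gave 67.6 in the knockout, 182 in flox-del and 29.8 in wt-flox, at least 2.25-fold higher in flox-del. Srsf1 gave 74 in the knockout, 167 in flox-del and 36.4 in wt-flox, at least 2.07-fold higher in flox-del. The 3 apart in wt-flox, of Hnrnpab, Srsf6 and Srsf11, also lie on design C. Srsf11 gave 49.3 in the knockout, 58.4 in flox-del and 136 in wt-flox, and counted as measured only through wt-flox.

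Of these 11 probe sets, 8 carried a suffix letter. Of 30 measured member probe sets with a suffix letter, 8 (26.7%) stood apart in the knockout, against 14.6% of all such probe sets. Of 54 without one, 3 (5.56%) did, against 11.6%. With signals averaging under 2 times the floor, 14 of 29 (48.3%) stood apart in some pool, against 42.4% of all such probe sets. Over 8 times the floor it was 1 of 25, the Snrpc probe set, against 9.53%. In that bright range the log2 difference of flox-del from wt-flox had a standard deviation of 0.17 over member probe sets and 0.33 over all. For the knockout minus the mean of both controls the order was reversed. There the standard deviation was 0.51 over member probe sets, that Snrpc probe set included, and 0.34 over all. On design C, the standard deviation of the difference in the knockout was 0.92 over the 21 member probe sets, against 0.72 over all, and on design A it was 0.32 over 50, against 0.39.

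**Figure D4:**
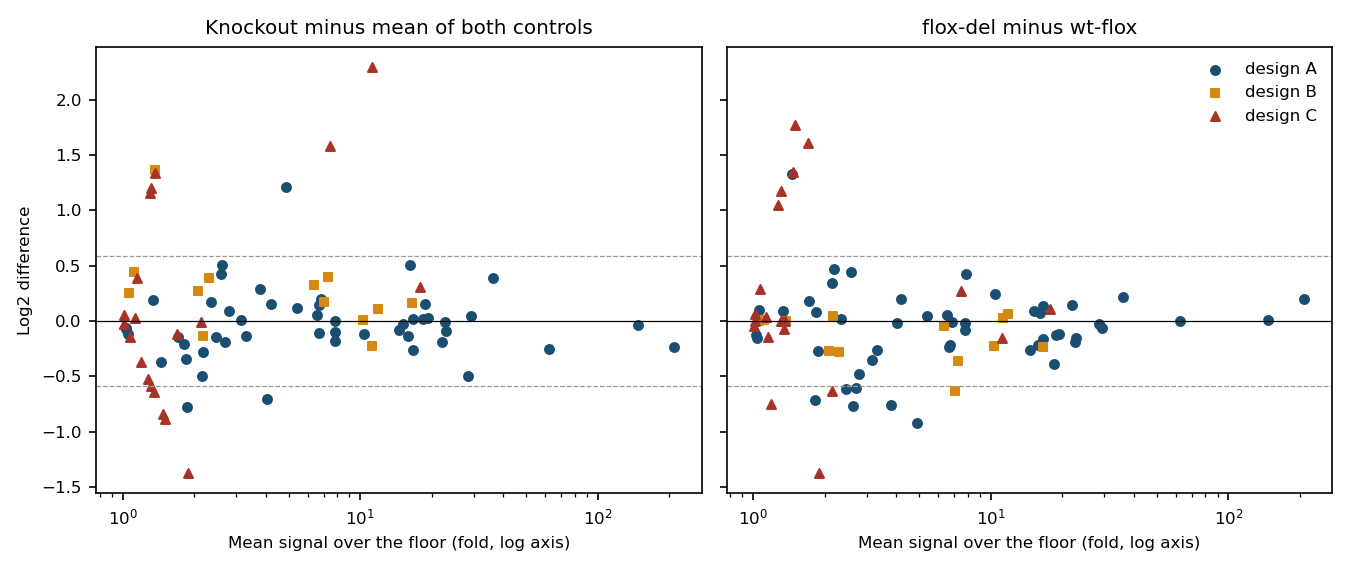
Log2 difference of the 84 measured member probe sets against their mean signal over the floor (log axis), for the knockout minus the mean of both controls (left) and for flox-del minus wt-flox (right), with shape and colour for the design. Dashed lines mark 1.5-fold. Most points far from 0 lie at low signal or on design C, and the 2 high points at the top of the left panel are Snrpc (2.29 and 1.58).

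Splicing genes outside the name rule had medians near 0 in the knockout. Of 58 measured components of the spliceosome, such as U2 auxiliary factors and Prp and Lsm proteins, 1 (1.72%) was at least 1.5-fold lower in the knockout, against 5.67% of all genes, and 0 were higher, against 6.49%, with a median of 0.0020. The 1 was Prpf38a, needed for spliceosome activation, at 252 in the knockout against 427 in flox-del and 462 in wt-flox, 1.69-fold lower. Of 38 measured splicing regulators and RNA-binding proteins, 3 (7.89%) were lower and 2 (5.26%) higher, near those shares of all genes, with a median of 0.06. Clk1, a kinase that phosphorylates SR proteins, stood at 355 in the knockout against 548 in flox-del and 568 in wt-flox, 1.54-fold lower in the knockout. Khdrbs1, an RNA-binding adaptor, stood at 52.3 in the knockout against 182 in flox-del and 207 in wt-flox on design C, at least 2.25-fold lower in the knockout, and at 120 in the knockout against 142 in flox-del and 144 in wt-flox on design A, 1.18-fold lower. Grsf1, which binds G-rich RNA, stood at 246 in the knockout against 376 in flox-del and 508 in wt-flox, 1.52-fold lower in the knockout.

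Srpk1, also a kinase of SR proteins, stood at 876 in the knockout, 570 in flox-del and 566 in wt-flox, 1.54-fold higher in the knockout. Its other probe sets gave 197 in the knockout against 285 in flox-del and 448 in wt-flox, lowest in the knockout, and 228 in the knockout against 249 in flox-del and 207 in wt-flox, between the controls. Nova1, a neuronal splicing factor, stood at 143 in the knockout against 40.6 in flox-del and 77.3 in wt-flox, at least 1.76-fold higher in the knockout, both controls being below the floor. Clk1 and Srpk1 thus stood on opposite sides in the knockout on the probe sets used.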

How the data were processed

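Total RNA of E7.5 embryo pools was measured on one-colour Affymetrix MG_U74 version 2 arrays, 9 in all. Each deposited value is the linear-scale intensity of a probe set. How probes were summarised, scaled and labelled is not stated in the labels or files. The deposited arrays were already at a common level: the mean without the lowest and highest 2% was 150 on each after rounding.

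Arrays were scaled within each design to equal trimmed means, floored at the pooled 50th percentile and put on the log2 scale. Array control probe sets entered the scaling and floor and no other step. The chip type of each array came from its experiment file. Symbols came from the platform annotation. All 44 member genes matched the gene table of assembly GRCm38.p6 under the same symbol. Another 8 probe sets list a member beside other symbols and were not used, and 8 genes of the role lists had no probe set with a single symbol and were not analysed here (Hnrnpa3, Hnrnpf, Sf3b4, Snrpa, Snrpd1, Snrpd2, Srsf7 and Srsf12). Every member was named, with values in each pool for those 1.5-fold apart in any pool, the 10 brightest and the 5 with the closest and widest probe sets. Other values given per pool were chosen after they were seen. Members, lists and markers were chosen with earlier results of these data known. Python 3.11.15, numpy 2.4.6, pandas 2.3.3 and scipy 1.17.1 were used. With 1 array per genotype and design, no test was run.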

Additional observations from a re-analysis of the deposited data

How the results depend on the processing

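In all, 13 alternative settings were tried, and counts, shares and medians were recomputed where each setting applies. The median difference in the knockout stayed between -0.11 and 0.09; it moved by over 0.1 from 0.0054 only with wt-flox as the sole control (-0.106). Genes lower in the knockout numbered 2, and 0 with equal medians, without suffix-marked probe sets, with the mean over probe sets and at 2-fold; the count was 1 with quantile normalization, with a floor at the 70th percentile, on design A alone and with only probe sets above the floor in every pool. Over the settings, genes lower in the knockout numbered at most 3. Without suffix-marked probe sets 34 member genes were measured, and Snrpb2, Srsf3 and Snrp1c-ps2 were not among them. Genes higher in the knockout numbered 2, and 0 without suffix-marked probe sets, and 1 on design A alone and at 2-fold. They numbered 3 with the floor at the 30th percentile, with no floor and with the mean over probe sets. With that mean they included Sf3b2, which has probe sets that counted as measured only through the knockout. Genes lower in flox-del numbered 3, and 0 at 2-fold, and at most 4 over the settings. Genes higher there numbered 1, and 0 with the floor at the 30th or 70th percentile, with no floor, with the mean over probe sets and with only probe sets above the floor in every pool. In wt-flox, 1 gene was lower with the floor at the 30th percentile, with no floor and at 1.3-fold, and 1 was higher at 1.3-fold. The share of genes whose probe sets agreed was 41.7%, 70% on design A alone, 60% with only probe sets above the floor in every pool, 33.3% with quantile normalization and 25% with wt-flox as the sole control. Hnrnpr in flox-del was 1.34 above the nearer pool on the log2 scale and turned to -0.147 with the floor at the 30th percentile, with no floor, on design A alone and with only probe sets above the floor in every pool, because its value then came from its design A probe set. The cause of the other changes was not tested. With 1 pool per genotype, leaving out a replicate was not possible, and signals near the floor limit what any setting can show. The hnRNP count between the controls, a count chosen after the data were seen, ran from 10 to 14 over the settings.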
